A study of Sus scrofa with 24 samples.

Results

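The cytosolic ribosomal protein genes were read on one-colour Agilent arrays hybridised with RNA from pig hearts after a myocardial infarction. A probe was counted as a member where its gene symbol was RPL or RPS followed by a digit, or RPLP0, RPLP1, RPLP2 or RPSA, and S6 kinase genes (RPS6K) were left out. The rule took 226 of 43603 probes, of which 192 were named through a RefSeq accession, 4 through a gene ID and 30 by the name on the array design. Of these, 224 probes were well above background on at least 3 arrays and were tested, among 34362 tested probes in all. They stood for 49 genes of 6060 named genes: 20 of the small subunit, 22 of the large subunit, 3 of the ribosomal stalk and 4 paralogs (RPL7L1, RPL10L, RPL26L1 and RPL36AL). No symbol of RPL3L, RPS6, RPS27L, RPL22L1 or RPS27A was found among the named probes. No member probe was saturated on any array.

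The study asked whether the secretome of apoptotic blood mononuclear cells, injected into the heart muscle, changed gene expression in chronic myocardial ischemia. Domestic pigs received the injections 1 month after a closed-chest, reperfused infarction, and tissue was taken 1 month later from 3 places: normal myocardium away from the infarct, the border zone into which the injections went, and the infarct core. Pigs of both arms had been given 250 mg aspirin and 300 mg clopidogrel 1 day before the infarction and 100 mg aspirin and 75 mg clopidogrel daily afterwards. Controls received medium as placebo, although their samples carry the label "not treated", and the design text names 8 pigs per arm, of which 6 secretome and 3 medium pigs were analysed here. The normal region was read on 4 secretome and 2 medium arrays, and the border zone and infarct core on 6 secretome and 3 medium arrays each. Pigs 12, 13 and 40 had no normal region array here, and the age and sex of the animals were not given in the sources used here.

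A ribosome is built from a small subunit, which decodes the messenger RNA, and a large subunit, which joins the amino acids. The acidic stalk of the large subunit, made of RPLP0 with RPLP1 and RPLP2, recruits the elongation factors. Ribosomal protein messenger RNAs share a 5′ terminal oligopyrimidine tract, through which mTOR signalling controls their translation together. RPL3 forms part of the peptidyl transferase centre, and in heart and skeletal muscle fibres it is largely replaced by its paralog RPL3L. Several members, among them RPL13A, RPLP0, RPL32, RPL4 and RPS18, are in common use as reference genes for quantitative PCR.

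The results turn mainly on probes of 60 bases, and 4 of them are given here because their genes differed most clearly or because their identity bears on the reading of the result. The probes of RPL3 and RPL27 were the only kept probes of these genes.

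RPL3: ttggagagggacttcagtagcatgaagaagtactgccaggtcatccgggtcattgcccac

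RPL27: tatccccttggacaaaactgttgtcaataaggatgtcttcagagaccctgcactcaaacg

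The probe named RPL10L, a paralog of RPL10, is set beside the brightest RPL10 probe. Capitals mark the bases that were identical where the pair overlapped in an ungapped alignment, 31 of 42 aligned bases (73.8%).

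RPL10: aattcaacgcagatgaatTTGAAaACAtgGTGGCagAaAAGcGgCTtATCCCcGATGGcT

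RPL10L: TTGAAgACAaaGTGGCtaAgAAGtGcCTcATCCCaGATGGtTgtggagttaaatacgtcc

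RNA had an integrity number above 6, per the labels. The arrays were scanned in 2 series of 12, pigs 12, 13, 16, 18 and 40 in the first and pigs 10, 11, 14 and 15 in the second. The series were not balanced over the regions. Secretome pigs had 1 normal region array in the first series and 3 in the second, against 3 infarct core arrays in each. Medium pigs had 1 normal region array in each series, and 2 infarct core arrays in the first and 1 in the second. Between 61.5% and 75.6% of probes were well above background on an array. The 75th percentile of the intensities lay between 405 and 617 in the first series, apart from 210 on the border zone array of pig 40, and between 243 and 354 in the second. Levels below are log2 intensities minus the array's own log2 75th percentile, so that 0 is that percentile. Differences between regions gave both arms equal weight and had the pig as a random block in limma, and adjusted p-values were taken over all tested probes.

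One array stood apart in these genes. For each array, the deviation of each of the 49 genes from its own mean over the 24 arrays was averaged. This mean deviation was 1.27 on the border zone array of pig 40, a medium pig, and between -0.36 and 0.21 on the other 23 arrays. On that array 46 of the 49 genes had their highest level of the series. Single genes deviated there by between -0.14 (RPL7L1) and 2.20 (RPS10, of the small subunit), with a median of 1.32, and 38 of 49 (77.6%) deviated by more than 1, against 733 of 6011 other named genes (12.2%). After quantile normalization, which gives all arrays one distribution, the array still had the highest mean deviation, 0.59, with the other border zone arrays between -0.24 and -0.05. Relative to 7 spike-in probes its mean deviation was -0.54, inside the range of -0.84 to -0.46 of the first scan series. An excess was thus seen with levels scaled to the array's own percentile, and a smaller one after quantile normalization. Relative to the spike-in probes there was none. The percentile intensity of this array was 210, against 405 to 617 on the other arrays of its scan series. Whether the members were raised on this array therefore depended on the scaling. Several counts and medians below are given with and without the array, as are the border zone differences of the genes named for them. Values within the first scan series, values under other scalings and the fitted infarct core against normal region differences of single genes include it unless stated.

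**Figure D1:**
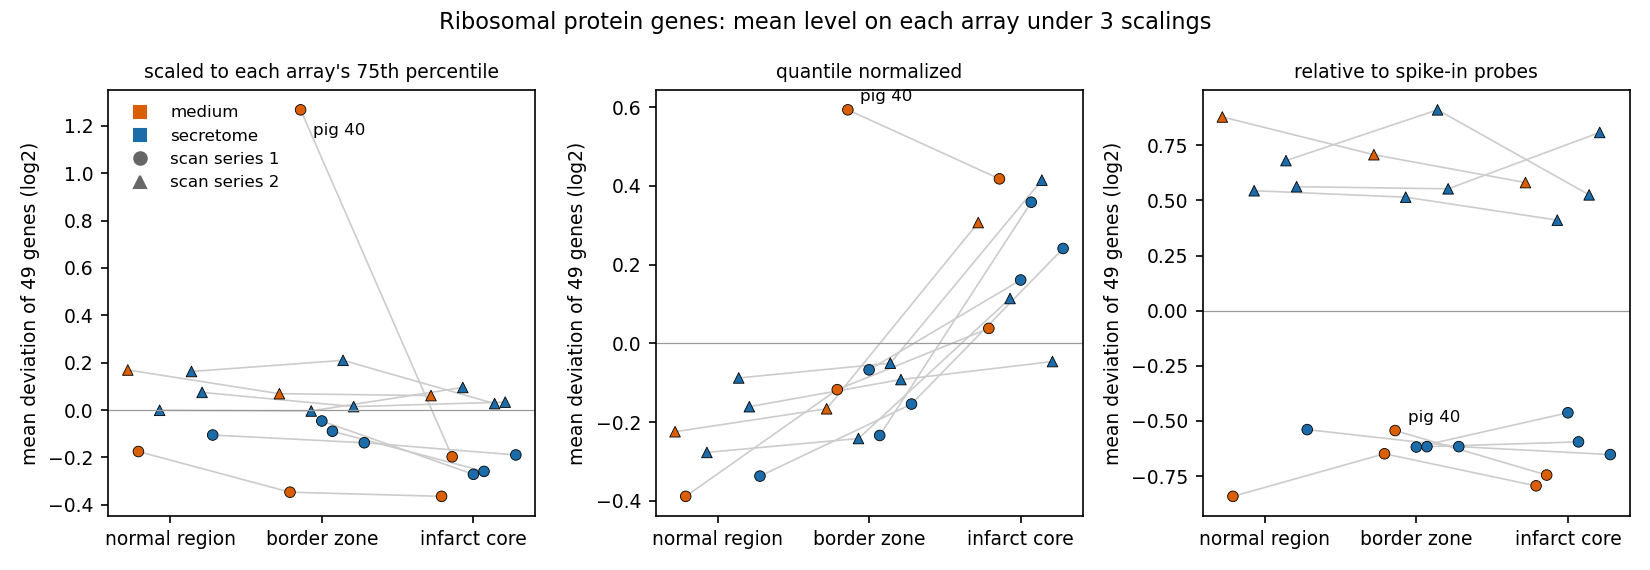
Mean deviation of the 49 ribosomal protein genes from their own means (log2, vertical axis) on each of 24 arrays by region, under scaling to the 75th percentile, quantile normalization and spike-in scaling. Colour gives the arm, shape the scan series, and lines join the arrays of a pig; the pig 40 border zone array lies at 1.27 in the first panel, 0.59 in the second and -0.54 in the third.

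Outside that array the members varied less than other genes. Over the 23 remaining arrays the median standard deviation of a member was 0.32, against 0.58 for the other named genes, of which 16.2% lay below the members' median. With all 24 arrays the medians were 0.40 and 0.60, and 24.3% of other genes lay below. The members were also among the brightest probes, with 44 of 49 above the 90th percentile of signal (median percentile 98.8). Their spread was not compared with that of equally bright genes. With levels scaled to the array's own percentile, the members' level went with the scan series. Without the pig 40 border zone array, the mean deviation lay between -0.36 and -0.05 in the first series. In the second it lay between -0.00 and 0.21, without overlap. The order depended on the scaling, as the border zone and infarct core of pigs 13 (first series) and 14 (second) show. Spike-in scaling kept it (-0.62 and -0.60 against 0.91 and 0.53). Without scaling it was reversed (0.10 and 0.47 against -0.18 and -0.06). After quantile normalization the values overlapped (-0.23 and 0.36 against -0.05 and 0.41).

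The infarct core was compared with the normal region to ask which genes differ in the scar. Relative to the 75th percentile, 11 of the 49 genes were lower and 2 were higher in the infarct core at an adjusted p under 0.05, beside 30.8% of all named genes lower and 27.6% higher. The median log2 difference of the members was -0.27, against -0.07 over all named genes. This direction held only under some scalings: after quantile normalization 38 of the 49 were higher and 1, RPL27A, was lower, with a median of 0.45, beside 30.1% and 29.8% of all named genes. In the authors' deposited values 35 of 48 were higher and none lower, with a median of 0.38, beside 29.9% and 29.2% of the named genes there. A gene was read there from its brightest kept probe among those deposited, which can be another probe than on the 75th percentile scale. Relative to the spike-in probes, with scan series in the model, 2 were higher and 5 lower (RPL8, RPL10A, RPL13A, RPL27 and RPLP0), with a median of -0.10, beside 24.7% and 20%. Within pigs, the mean of the members was lower in the infarct core in 5 of 6 pigs relative to the 75th percentile (-0.19 to 0.10). The median over these pigs was -0.10, smaller in size than the members' fitted median of -0.27. The mean was higher in 6 of 6 pigs both after quantile normalization (0.11 to 0.58) and without scaling (0.12 to 0.39). A direction for the family as a whole was thus not settled by these arrays. What held under each scaling was the place of RPL3, at or next to the top of the members.

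By subunit, relative to the 75th percentile, 3 of 20 small subunit genes were lower and none higher (median -0.18). Among the 22 large subunit genes 7 were lower and 1 higher (median -0.34), and of the 3 stalk genes 1 was lower (median -0.34). Of the 4 paralogs 1 was higher. After quantile normalization 16 of the 20 small subunit genes were higher, with a median of 0.46, so the sign of each median followed the scaling. Among the 11 lower genes were RPL8, RPL10A, RPL13A, RPL18, RPL23, RPL27, RPL32, RPLP0 and RPS28. With scan series as a covariate 8 of the 11 were lower again, beside 32.1% of all named genes lower and 28.4% higher, and RPL10A, RPL23 and RPS28 did not pass. Without the pig 40 border zone array all 11 were lower again among 17 lower genes, beside 33% of all named genes, and 3 genes were higher (RPL3, RPL10L and RPS24), beside 28.7%. The members' median was then -0.18. Within the first scan series 2 members, RPL27A and RPL7L1, were lower and 1 was higher (median -0.24), beside 26% and 20.7% of all named genes, so that none of the 11 passed there. Within the second 2 of the 11, RPL13A and RPLP0, were lower and 2 members were higher (median -0.12), beside 15.5% and 17.5%.

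Only 5 genes had a positive difference under all 6 scalings compared (RPL3, RPL36AL, RPS12, RPS18 and RPS24), and only RPL13A and RPL27A a negative one. Of these 7 genes, RPL3 alone passed the threshold under all 6. The RPL27A probe was dim, at signal percentile 16.0 against a median of 98.8 over the members. The scalings were the 75th percentile over all probes, the percentile over probes detected on all arrays, quantile normalization, the authors' values, normexp background correction with repaired local backgrounds, and spike-in scaling.

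**Figure D2:**
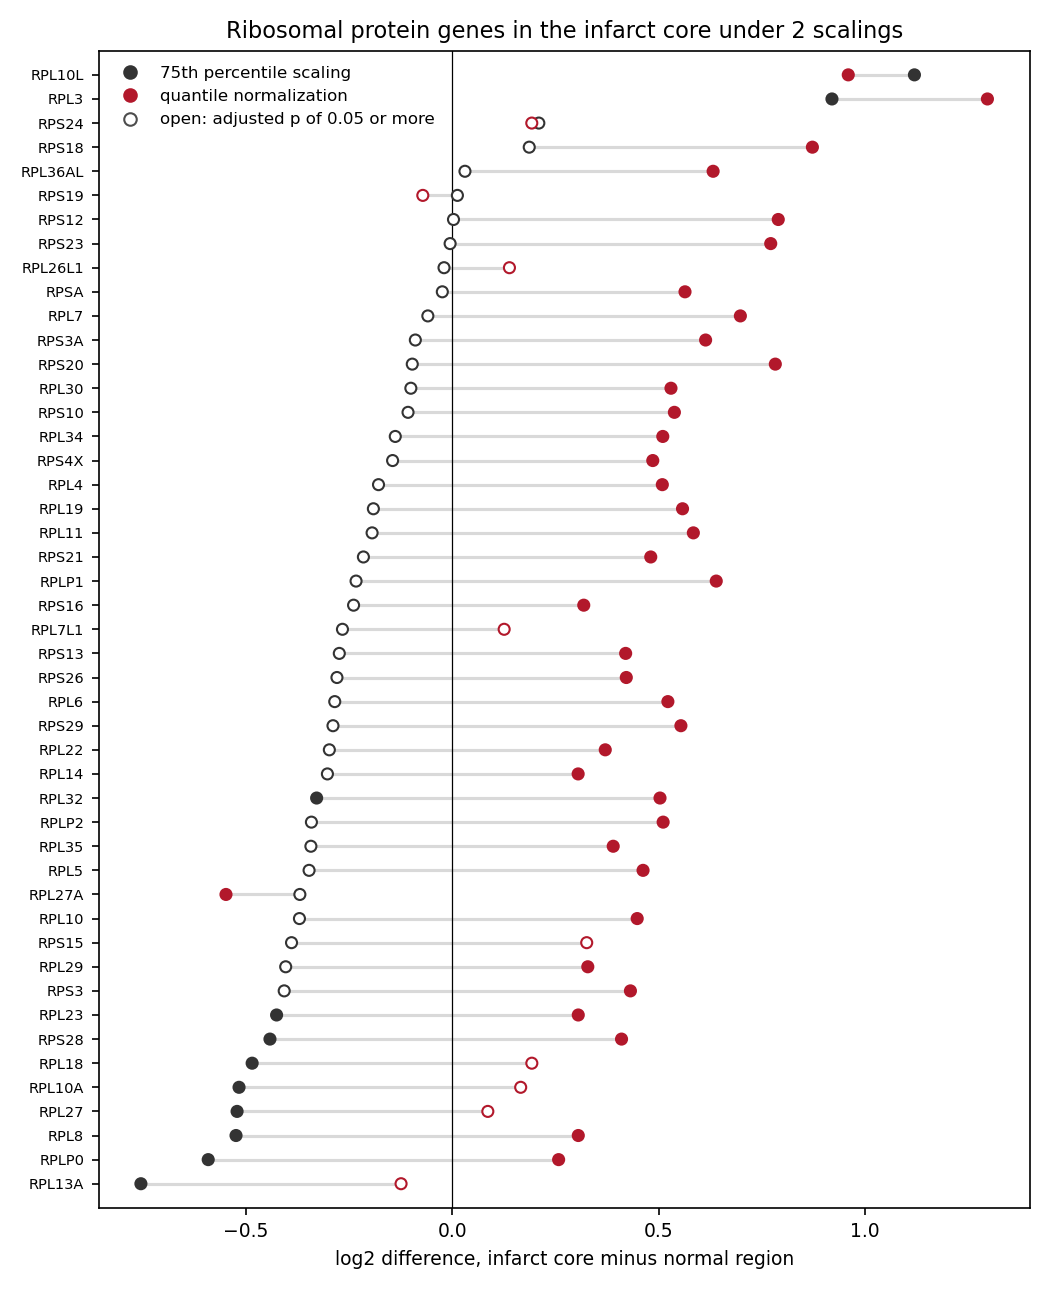
Log2 difference between infarct core and normal region (horizontal axis) for 47 of the 49 genes under 75th percentile scaling (black) and quantile normalization (red), joined by a line. Filled points had an adjusted p under 0.05; of those shown, 2 genes were higher and 9 lower in black, and 37 higher and 1 lower in red, while RPL3 and RPL10L were filled on the positive side under both. The RPL10L probe was dim, with 4 of 6 normal region arrays not well above background.

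RPL3 was higher in the infarct core. Its lowest, median and highest log2 levels were 3.49, 4.20 and 4.43 on the 6 normal region arrays, 3.73, 4.50 and 5.63 on the 9 border zone arrays, and 4.67, 4.89 and 5.58 on the 9 infarct core arrays. Every infarct core array lay above every normal region array, which was true of no other member, and the border zone overlapped with both. The difference between infarct core and normal region was 0.92 ± 0.18 (SE; limma, adjusted p = 0.00029), and it was positive in 6 of 6 pigs, from 0.44 to 1.34. Over the 6 scalings it ranged from 0.92 to 1.35, and it was 1.16 within the first scan series (adjusted p = 0.017) and 1.00 within the second (adjusted p = 0.0187). Against the border zone RPL3 was higher by 0.45 ± 0.16 (limma, adjusted p = 0.0257) and in 8 of 9 pigs, pig 40 being the exception. Without the border zone array of that pig the difference was 0.62 (adjusted p = 0.0043). Within the first scan series the difference was 0.21, with the pig 40 array as 1 of the 2 medium border zone arrays, and within the second 0.84. The first series was not fitted without that array.

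RPL10L, a retrogene copy of RPL10 best known from the testis, gave the other higher call, on a dim probe. It was well above background on 2 of 6 normal region, 5 of 9 border zone and 8 of 9 infarct core arrays. Log2 levels ran from -6.83 to -4.68 (median -5.38) in the normal region, from -6.92 to -3.12 (median -4.88) in the border zone and from -4.87 to -3.45 (median -4.54) in the infarct core. The regions overlapped. Since 4 of 6 normal region arrays were not well above background, the size of the difference is not a measured fold. The fitted difference of 1.12 ± 0.28 (limma, adjusted p = 0.0024) was positive in 6 of 6 pigs, but was 0.05 in the authors' deposited values and -0.20 after normexp correction with repaired backgrounds. It was 0.51 within the first scan series (adjusted p = 0.40) and 1.60 within the second (adjusted p = 0.0436). RPL10 itself, a large subunit protein, differed by -0.37 (adjusted p = 0.0711) and none of its 5 probes passed. Within pigs RPL10 differed by -0.34 to -0.05, in each of the 6 less than the fitted value. Whether the RPL10L probe also binds other transcripts was not tested.

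RPLP0, the base of the stalk, was lower in the infarct core relative to the 75th percentile. Its log2 levels were 8.86 to 9.38 (median 9.14) in the normal region, 8.40 to 9.88 (median 9.03) in the border zone and 8.30 to 8.89 (median 8.54) in the infarct core. The highest infarct core array reached just above the lowest normal region array. The difference was -0.59 ± 0.14 (limma, adjusted p = 0.0014), and all 13 RPLP0 probes passed, from -0.73 to -0.52. Within pigs it was negative in 6 of 6, from -0.64 to -0.28. After quantile normalization the same gene was higher by 0.26. The other stalk proteins, RPLP1 and RPLP2, differed by -0.23 (adjusted p = 0.26) and -0.34 (adjusted p = 0.0886).

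RPL13A, a large subunit protein that also takes part in silencing inflammatory transcripts after its release from the ribosome, had the most negative difference of the 49 genes. Its log2 levels were 6.62 to 7.43 (median 7.12) in the normal region, 5.91 to 7.86 (median 6.90) in the border zone and 5.77 to 6.91 (median 6.17) in the infarct core, with overlap among the 3 regions. It differed by -0.75 ± 0.19 (limma, adjusted p = 0.0019) between infarct core and normal region. Within pigs it was lower in 6 of 6, with differences of -0.85 to -0.11. The sign stayed negative after quantile normalization (-0.12) and in the authors' deposited values (-0.14), where it did not pass. A further RPL13A probe of the 3 kept did not pass either (-0.06, adjusted p = 0.81).

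RPL27, a large subunit protein, separated the regions completely on the 75th percentile scale. The 6 normal region arrays lay between 6.55 and 6.89 and the 9 infarct core arrays between 5.98 and 6.53, without overlap, while the border zone arrays ran from 6.23 to 7.39. The difference was -0.52 ± 0.13 (limma, adjusted p = 0.002), and within pigs it ran from -0.53 to -0.17. After quantile normalization RPL27 differed by 0.09, and relative to the spike-in probes with scan series in the model by -0.39 (adjusted p = 0.0265).

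RPL8, a large subunit protein next to the peptidyl transferase centre, was read at 8.42 to 8.83 (median 8.68) in the normal region and at 7.89 to 8.57 (median 8.09) in the infarct core, and the large subunit protein RPL10A at 7.64 to 8.29 (median 8.05) and 7.12 to 8.07 (median 7.36). The regions overlapped for both. RPL8 differed by -0.52 ± 0.16 (adjusted p = 0.0079). It was lower in 6 of 6 pigs, with within-pig differences of -0.53 to -0.06. RPL10A also differed by -0.52 ± 0.19 (adjusted p = 0.0243), with all 9 of its probes lower, from -0.65 to -0.47. It was lower in 5 of 6 pigs, with within-pig differences of -0.58 to 0.17. With scan series as a covariate RPL10A differed by -0.45 (adjusted p = 0.055). Quantile normalization turned RPL8 and RPL10A, to 0.30 and 0.17. Relative to the spike-in probes with scan series in the model both stayed lower, by -0.38 (adjusted p = 0.0291) and -0.35 (adjusted p = 0.0464). RPL27A, read by a dim probe well above background on 15 of 24 arrays, differed by -0.37 (adjusted p = 0.11). Within pigs it differed by -0.63 to 0.65 and was lower in 4 of 6.

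**Figure D3:**
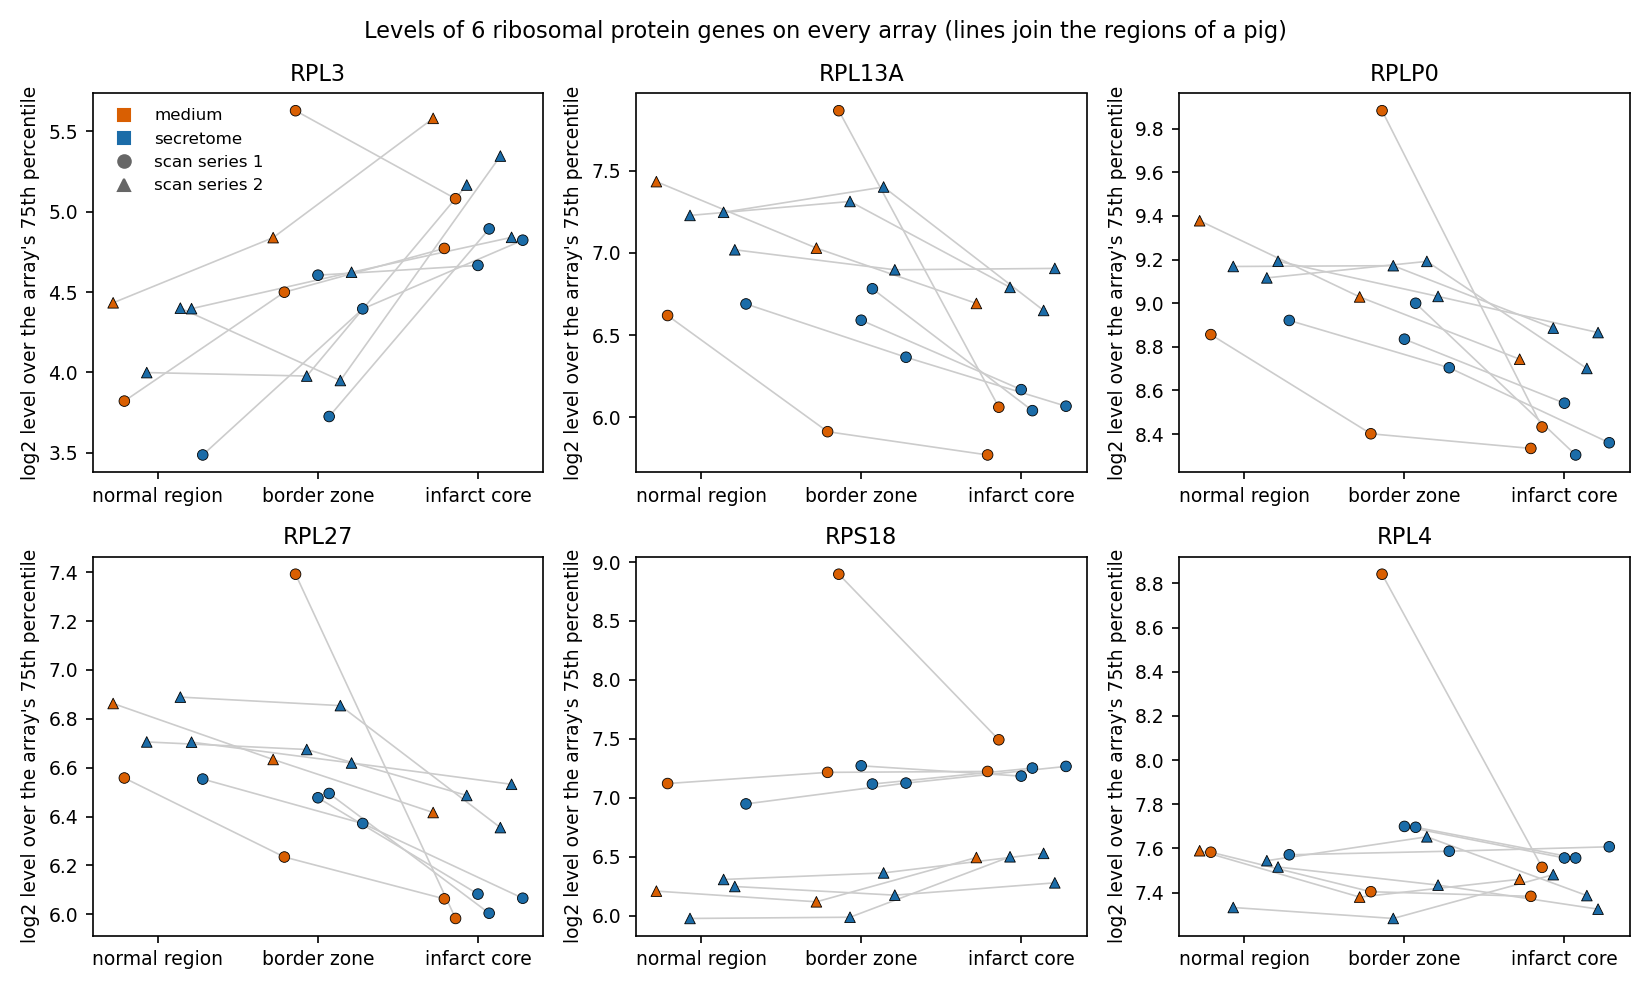
Log2 level relative to the array's 75th percentile (vertical axis) of RPL3, RPL13A, RPLP0, RPL27, RPS18 and RPL4 on each of 24 arrays by region; colour gives the arm, shape the scan series, and lines join a pig's arrays. RPL3 infarct core arrays (4.67 to 5.58) all lie above the normal region arrays (3.49 to 4.43), and RPS18 separates by scan series in every region.

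Among the remaining PCR reference genes, RPS18 of the small subunit was read at 5.98 to 6.53 on the arrays of the second scan series and at 6.95 to 8.90 on those of the first. The scan series did not overlap, and within them the infarct core was above the normal region in 6 of 6 pigs, by 0.03 to 0.52. Its fitted difference was 0.19 ± 0.22 (adjusted p = 0.51), and 0.87 after quantile normalization. RPL4, a large subunit protein, had nearly equal levels, 7.33 to 7.59 in the normal region and 7.32 to 7.61 in the infarct core, and differed by -0.18 ± 0.14 (adjusted p = 0.30), or by 0.51 after quantile normalization. RPL32 was lower by the 75th percentile scale (-0.33 ± 0.11, adjusted p = 0.0198) and higher after quantile normalization (0.50). The call rested on the brightest of 7 probes: the other 6 differed by -0.32 to -0.21 and did not pass.

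Other members with a known role gave smaller differences on the 75th percentile scale. RPL5 and RPL11, which bind MDM2 when ribosome assembly is disturbed, differed by -0.35 (adjusted p = 0.0786) and -0.19 (adjusted p = 0.31). Within pigs they differed by -0.30 to 0.02 and by -0.20 to 0.09. RPSA, also known as a laminin receptor, differed by -0.02, RPL22 by -0.30 and RPS19, the gene most often mutated in Diamond-Blackfan anaemia, by 0.01 (adjusted p = 0.91, 0.20 and 0.95). The only kept RPS19 probe was dim for a member, at signal percentile 40.1 against a median of 98.8 over the members. After quantile normalization RPL5, RPL11, RPSA and RPL22 were at 0.46, 0.58, 0.56 and 0.37. The paralogs RPL7L1, RPL26L1 and RPL36AL differed by -0.27, -0.02 and 0.03, and none of these 8 genes passed on the 75th percentile scale. For RPL7L1 the value is that of the brightest of 3 probes (adjusted p = 0.17), and both others were lower, by -0.34 (adjusted p = 0.0254) and -0.31 (adjusted p = 0.0132).

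Many genes were read by several probes, which tests the reading of a gene on the same RNA but is no further replicate. Of 224 member probes 56 were lower and 4 higher in the infarct core than in the normal region, beside 27.6% of all probes lower and 25.4% higher. For 36 genes with more than 1 kept probe, no gene had probes called in opposite directions, and the median span between a gene's highest and lowest probe was 0.17. RPL5 had 18 probes between -0.40 and -0.11, RPL7 16 between -0.09 and 0.41, and RPS3A 9 between -0.10 and -0.03, and none of them passed. RPL6 had 5 of 13 probes lower and RPL8 5 of 7. The widest span was that of RPS23, a small subunit protein of the decoding centre, which is named here after its values were seen: 2 of its 6 probes were higher, by 0.82 (adjusted p = 0.00059) and 1.09 (adjusted p = 0.011), and the other 4 lay between -0.01 and 0.10.

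**Figure D4:**
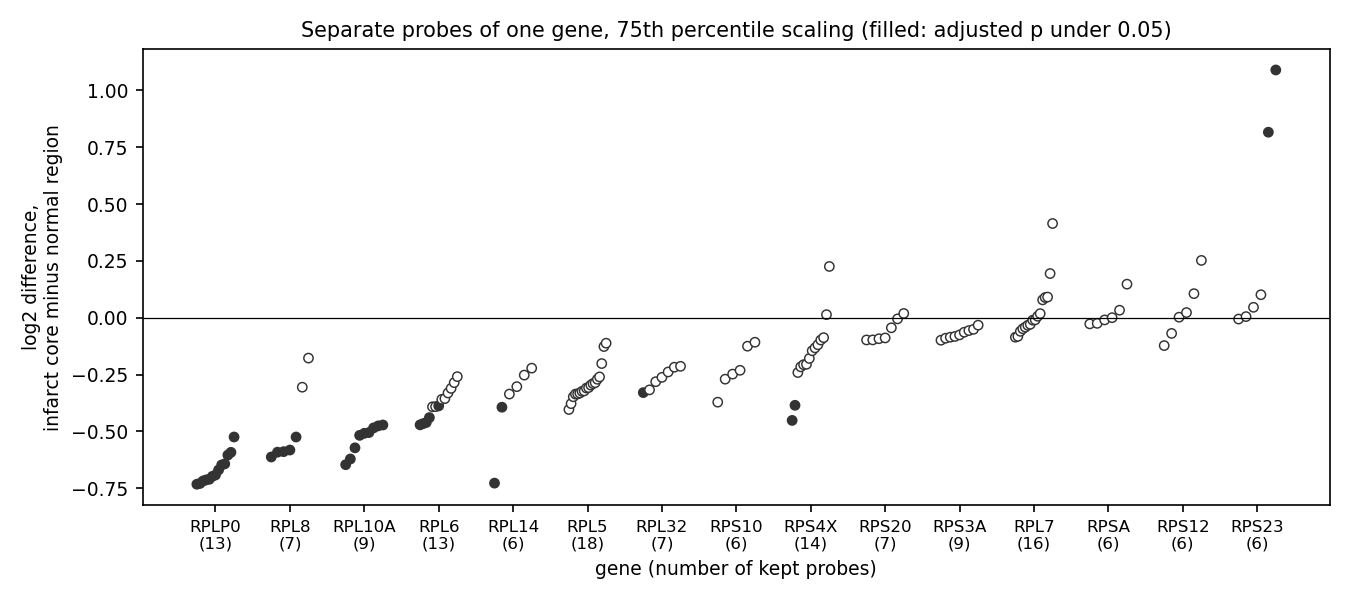
Log2 difference between infarct core and normal region on the 75th percentile scale (vertical axis) for each probe of the genes with at least 6 kept probes; filled points had an adjusted p under 0.05. All 13 RPLP0 and all 9 RPL10A probes lie below 0 and are filled, and 2 of the 6 RPS23 probes lie apart at 0.82 and 1.09.

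The infarct core was next compared with the border zone, which 9 pigs provided. On the 75th percentile scale 20 of the 49 genes were lower and 1, RPL3, was higher, beside 26.2% and 25.9% of all named genes, and the members' median was -0.33 against -0.02. All 11 genes lower against the normal region were also lower here, but both comparisons use the same infarct core arrays. The count rested largely on 1 array. Without the pig 40 border zone array 6 genes were lower (among them RPL8, RPL10A, RPL13A, RPL27 and RPLP0) and 2 were higher (RPL3 and RPS24), beside 25.1% and 24.5%, and the median was -0.08. After quantile normalization 24 genes were higher and 1 lower, beside 28.7% and 24.4%, and without that array 38 and 1, beside 26.4% and 24%. Within the first scan series 2 genes were lower and none higher (median -0.49), beside 20% and 16.3%. Within the second none was lower and 1 was higher (median -0.03), beside 8.45% and 11%.

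Among the members with the most negative differences from the border zone were RPL13A (-0.61, adjusted p = 0.004), RPL10A (-0.57, adjusted p = 0.0061), RPL27A (-0.57, adjusted p = 0.0068) and RPL8 (-0.52, adjusted p = 0.0038). Without the pig 40 border zone array RPL13A differed by -0.36 (adjusted p = 0.032), RPL10A by -0.30 (adjusted p = 0.0495) and RPL8 by -0.27 (adjusted p = 0.0195), while RPL27A did not pass (-0.39, adjusted p = 0.0538). RPL8, RPL27 and RPLP0 were lower in the infarct core in 9 of 9 pigs, and RPL13A and RPL10A in 8. RPL27A, on a dim probe, was lower in 6 of 9 pigs and differed within pigs by -1.65 to 0.30. After quantile normalization RPL8 and RPL10A had small positive differences of 0.12 and 0.03.

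Between border zone and normal region no member passed in limma, beside 0.611% of all named genes higher and 0.0165% lower, and 2 members had an unadjusted p under 0.05. The smallest p-values were those of RPL3 (0.47 ± 0.18, adjusted p = 0.25), RPL10L (0.72) and RPL36AL (0.30). RPL3 was higher in the border zone in 4 of 6 pigs. The median over the members was 0.07 with all arrays and -0.09 without the pig 40 border zone array, so its sign rested on 1 array. Without it no member passed either, beside 0.314% of all named genes higher and 0% lower, and 4 members had an unadjusted p under 0.05. RPL3, RPL10L and RPL36AL then differed by 0.36, 0.64 and 0.10.

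Secretome and medium were compared within each region, the comparison the study was designed for. No member passed in any region in limma. An unadjusted p under 0.05 was found for 2 members in the border zone and for 0 in each of the other regions. Of all named genes 0% were higher and 0.033% lower in the infarct core, and 0% passed in either direction in each of the other regions. The smallest adjusted p of a member was 0.97 in the infarct core, 0.66 for the border zone and 1.00 for normal tissue. The 95% intervals were wide: their median half-width was 0.63 for the infarct core, 0.63 for the border zone and 0.72 for normal tissue. They lay wholly within a log2 difference of 1 for 44, 30 and 37 of the 49 genes in the same order, and reached beyond it for the others. Without the pig 40 border zone array the median half-widths were 0.40, 0.44 and 0.46. The intervals then lay within that difference for 47, 44 and 47 genes.

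In the border zone 47 of the 49 genes were lower with secretome, with a median of -0.32 against -0.00 over all named genes. Without the pig 40 array, 42 of the 49 were higher, with a median of 0.17 (median half-width of the intervals 0.44). The shift of the family between the arms in this region thus changed sign with 1 medium array of 3. RPL30, a large subunit protein, shows the change in a single gene. Its levels in the medium border zone were 6.48, 6.50 and, in pig 40, 8.46, against 6.37 to 6.70 (median 6.57) with secretome. The difference was -0.60 ± 0.31 with that array and 0.02 ± 0.14 (95% interval -0.27 to 0.32) without it.

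**Figure D5:**
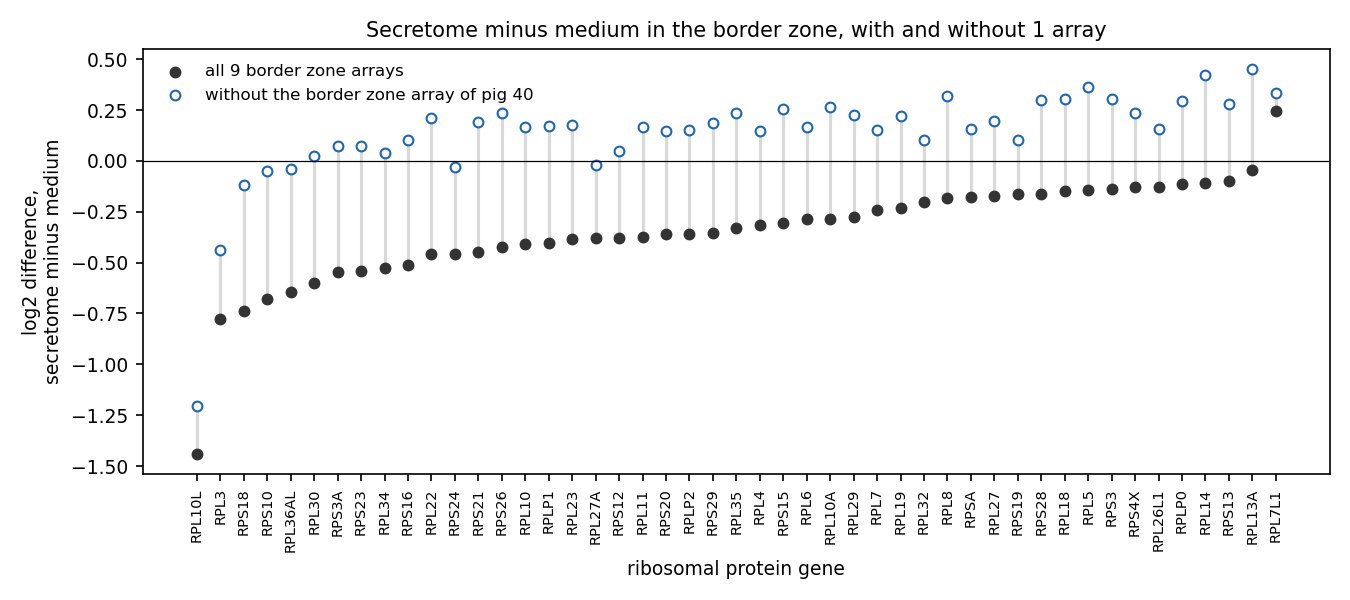
Log2 difference between secretome and medium in the border zone (vertical axis) for 47 of the 49 genes, with all 9 border zone arrays (black) and without the pig 40 array (blue circles). Of those shown, 46 genes lie below 0 in black and 40 above 0 in blue; RPL10L and RPL3 lie below 0 in both.

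RPL10L and RPL3 were the members with the smallest p in the border zone. RPL3 was read at 4.50, 4.84 and 5.63 in the medium pigs and at 3.73 to 4.62 (median 4.19) in the secretome pigs. The arms overlapped. The difference was -0.78 ± 0.34 (95% interval -1.47 to -0.08, adjusted p = 0.69) and -0.44 ± 0.35 without pig 40 (-1.16 to 0.29). RPL10L was read at -4.49, -4.47 and -3.12 with medium and at -6.92 to -4.40 (median -5.22) with secretome, again with overlap. It differed by -1.44 ± 0.52 (adjusted p = 0.66), by -1.21 ± 0.59 without pig 40, and was well above background on 3 of 3 medium and 2 of 6 secretome arrays.

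In the infarct core the members with the smallest p were RPL14 (0.35 ± 0.29, 95% interval -0.26 to 0.96), RPL27A (0.41 ± 0.34) and RPS10 (-0.36 ± 0.39), and none passed. RPL14 was read at 5.89, 6.20 and 6.50 with medium and at 6.36 to 6.79 with secretome. In the normal region they were RPL32 (-0.27 ± 0.24), RPS18 (-0.47 ± 0.46) and RPS10 (-0.45 ± 0.44). The medians over the members were 0.10 in the infarct core and -0.15 in the normal region, and 0.02 in the latter without the pig 40 border zone array. Whether a difference between regions itself differed between the arms was tested as an interaction, and no member passed for any pair of regions. An unadjusted p under 0.05 was found for 2 members in infarct core against border zone, 0 in infarct core against normal region and 1 in border zone against normal region, and for 0 in each pair without the pig 40 border zone array.

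Other genes of translation were read from lists of factors, whose counts stand beside the 27.6% of all named genes higher and 30.8% lower in this comparison. Of the ribosomal proteins outside the symbol rule, 2 of 3 measured were lower in the infarct core than in the normal region, among them RACK1, a small subunit scaffold protein (-0.53 ± 0.17, adjusted p = 0.0108). After quantile normalization RACK1 was at 0.14. Of 8 elongation factors and other oligopyrimidine tract genes 2 were higher and 3 lower. The poly(A)-binding protein gene PABPC1 was higher by 0.82 ± 0.14 (adjusted p = 5.26e-05) and 1.36 after quantile normalization. EEF2K, the kinase that inhibits elongation factor 2, was lower by the same measure (-1.04 ± 0.21, adjusted p = 0.00029, and -0.86 after quantile normalization).

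Of 13 initiation factors 1 was higher and 6 lower. EIF4A1, the helicase of the cap-binding complex, was higher (0.78 ± 0.10, adjusted p = 2.84e-06) and EIF2B1, a subunit of the guanine nucleotide exchange factor of eIF2, was lower (-0.53 ± 0.09, adjusted p = 3.58e-05). Neither of the 2 termination genes passed (ETF1 -0.27, ABCE1 0.02). Of 25 ribosome assembly genes 9 were lower and 1 higher, with FTSJ3 at -0.93 and NIP7 at -0.75. Among 4 genes of RNA polymerase I and its control, POLR1D was lower (-0.87) and MYC, a transcription factor that drives ribosome production, was higher (0.79). Of 10 genes linking mTOR to translation 2 were higher and 3 lower, with TBC1D7, a subunit of the TSC complex that restrains mTOR, at -0.87 and the translation repressor EIF4EBP2 at -0.70. The 10 genes called here by name other than RACK1 kept their sign after quantile normalization.

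Cell type markers moved with the region beside these results. All 11 measured cardiomyocyte markers were lower in the infarct core than in the normal region (median -2.18), and their mean log2 level was 8.51 to 9.19 on normal region, 7.60 to 9.16 on border zone and 2.73 to 8.72 on infarct core arrays. The lowest of these was the infarct core array of pig 40, and the other 8 lay between 6.32 and 8.72. None of the 11 was below background on all arrays of a region, so heart muscle was read in each. All 8 fibroblast and scar markers were higher (median 3.17), from 1.35 to 2.93 in the normal region to 4.04 to 5.59 in the infarct core. All 7 macrophage and monocyte markers were higher (median 1.54), as were 8 of 9 T and NK cell markers, of which 1 was lower. In such bulk tissue, fewer cells of a type and less RNA per cell cannot be told apart. On the border zone array of pig 40 the cardiomyocyte mean was 8.41 and the fibroblast mean 3.74, both within the range of the other border zone arrays, while the macrophage mean of 2.46 and the T and NK cell mean of -0.92 were the highest of the border zone arrays and the endothelial mean of 0.70 the lowest. The part of these markers in the differences of the ribosomal protein genes was not tested.

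The member probes themselves were slightly richer in GC than the rest, with a median of 45% against 41.7% over all kept probes. The polyadenylation signal AATAAA, searched on the printed strand, was found in 41 of the 224 member probes (18.3%) and in 10.1% of all kept probes. On the opposite strand, read as TTTATT, it was found in 1 member probe (0.446%) and in 4.32% of all kept probes. A match describes the letters of the probe only.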

How the data were processed

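RNA of 24 tissue samples from 9 pigs was read on 24 one-colour arrays. Per the file headers, spots were quantified with Agilent Feature Extraction 10.7.3.1, and the deposited processed signal is a linear intensity, background-subtracted and not normalized between arrays. The authors also deposited log2 values of 33348 probes for the same arrays, whose 24 columns share a single highest value and have medians between 7.68 and 7.69, and the method behind them is not given in the sources used here. The submitters' processing notes name limma 3.14.4.

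Control spots and outlier spots were left out, log2 processed signals were reduced by each array's 75th percentile, and a probe was kept if at least 3 arrays read it well above background (34362 of 43603). Of all probes 13836 had 1 gene symbol, 27 several and 29740 none here. A gene was read from its brightest kept probe. limma 3.58.1 (R 4.3.3, statmod 1.5.0, data.table in version 1.17.8) fitted the 6 groups of arm and region with the pig as a random block (correlation 0.548), and p-values were adjusted over all kept probes by Benjamini-Hochberg, with a threshold of 0.05. Plots came from matplotlib 3.10.9 and tables from pandas 2.3.3, under Python 3.11.15 and numpy 2.4.6. Pigs are separate animals, and their number limits the precision.

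The labels give the pig of each array. Over 21 pairs of arrays from the same pig, deviations from the group means had a mean correlation of 0.583 (lowest 0.119). It was 0.439 over 94 pairs of different pigs within a scan series and -0.454 over 118 pairs across the series.

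On simulated data of 34278 probes, the comparison of infarct core with normal region recovered 52 of 100 probes changed 2-fold and 90 of 100 changed 4-fold, and called 10 unchanged probes. The simulated errors held a pig effect, but no scan series effect, no outlying array and no correlation between probes, unlike these arrays.

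The members, the lists and the tests were chosen with earlier results of these data known. Named with values were, per comparison, the 5 highest and 5 lowest members past the threshold (or the 3 smallest p-values where fewer than 3 passed), the PCR reference genes and other members with a known role, the paralogs, and the 2 genes with the smallest p of each other list. Alternatives concerned scaling, background correction, the source of the values, dim and saturated probes, the probe read for a gene, the pig, scan series and slide terms, and single pigs left out. Results of some genes that the rule names are not reported here. Promoter and protein sequences and genome positions were not analysed here.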

Additional observations from a re-analysis of the deposited data

Results flagged for a closer look

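A search for single samples far from their group made 78 tests over groups of 4 to 10 arrays and marked 8, where chance marks about 1 in 20 groups. Of the 8, 6 were the border zone array of pig 40. The mean deviation of the members there was 1.27, with the other border zone arrays between -0.35 and 0.21, and 0.59 after quantile normalization, with the others between -0.24 and -0.05. Single genes on the same array were RPL8 at a log2 level of 9.71 (others 8.03 to 8.87), RPS18 at 8.90 (5.99 to 7.27), RPL4 at 8.84 (7.28 to 7.70) and RPL32 at 9.58 (8.49 to 8.90).

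On the spike-in scale the normal region array of pig 16 had a mean deviation of -0.54, with the other secretome normal region arrays between 0.54 and 0.68. It is the only array of that group in the first scan series. Among the 6 normal region arrays, RPL4 was lowest on that of pig 11, at 7.33, with the other normal region arrays between 7.52 and 7.59.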

How the results depend on the processing

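Counts below are members higher and lower in the infarct core. Shares of all named genes were given above for some of these settings only. The other counts therefore do not show whether the members differ from all named genes. Against the normal region (2 and 11 as reported), quantile normalization gave 38 and 1 with a median of 0.45, the authors' values 35 and 0 (0.38), normexp with offset 50 1 and 0, and the percentile over probes detected on all arrays 5 lower. Against the border zone (1 and 20), the same settings gave 24 and 1 (median 0.28), 25 and 2 (0.24), 0 and 6, and 12 lower. Requiring signal on all 24 arrays left 1 higher against the normal region. Quantile normalization turned RPL10 to 0.45, RPL10A 0.17, RPL11 0.58, RPL22 0.37, RPL27 0.0858, RPL32 0.50, RPL4 0.51, RPL5 0.46, RPL8 0.30, RPLP0 0.26 and RPSA 0.56, and against the border zone RPL10A to 0.0292 and RPL8 to 0.12. In the authors' values these were 0.38, 0.12, 0.55, 0.36, 0.0815, 0.52, 0.46, 0.40, 0.26, 0.22 and 0.54, and 0.0236 and 0.0888. With normexp RPL10L was at -0.18, and RPL27A at 0.0732 against the border zone. The local backgrounds of 2 arrays held saturated values that upset normexp, and after their repair 1 member was higher and RPL10L was at -0.20. The cause of the turns was not tested.

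Without the replicate block of the pig 3 members were lower against the normal region, and 0 higher and 4 lower against the border zone; with the pig as a fixed replicate block 0 were higher against the border zone, and the block changed no other count by over 1.5 times. With the slide as a random block 4 and 8 were lower, and the secretome median in the infarct core was -0.32. Within scan series 1 there were 1 and 2, and 0 and 2; within series 2, 2 lower against the normal region and 0 lower against the border zone, with a border zone against normal region median of -0.0923. Without the border zone array of pig 40 17 were lower against the normal region, 2 higher and 6 lower against the border zone, and the border zone against normal region median was -0.0884.

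Leaving out each pig in turn gave 1 to 3 higher and 6 to 13 lower against the normal region (6 without pig 10, 7 without pig 14; median -0.32 to -0.17), and 0 to 2 and 4 to 29 against the border zone (4 without pig 40; median -0.48 to -0.07). The border zone against normal region median ran from -0.0887 to 0.16, and the secretome medians from -0.00 to 0.23 in the infarct core, -0.68 to 0.16 in the border zone and -0.38 to -0.01 in the normal region. No member passed between the arms in any of these. Gene ranges that crossed 0 were RPL26L1 (-0.15 to 0.07), RPL36AL (-0.03 to 0.10), RPS19 (-0.11 to 0.09), RPSA (-0.10 to 0.05) and, for secretome in the border zone, RPL30 (-0.93 to 0.06).

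Further settings were chosen after seeing the data. Without the pig 40 border zone array and with scan series in the model, 4 and 18 passed against the normal region and 3 and 10 against the border zone (border zone against normal region median -0.0748). Spike-in scaling with scan series gave 5 lower and 3 lower, and without that array 4 higher, and 2 and 6; it moved the median of all named genes to 0.18 against the border zone. Centring on the members moved that median to 0.13 against the normal region and 0.27 against the border zone, and gave 6 lower, and 3 and 3 (median -0.0117 for border zone against normal region). Quantile normalization without that array gave 39 and 1 (0.49), with RPL10 0.49, RPL10A 0.21, RPL11 0.62, RPL22 0.43, RPL27 0.10, RPL32 0.49, RPL4 0.53, RPL5 0.49, RPL8 0.34, RPLP0 0.27 and RPSA 0.58, and 38 and 1 (0.36) against the border zone, with RPL10A 0.15, RPL13A 0.0333 and RPL8 0.22. RPL3 against the normal region stayed past the threshold in all 31 settings, from 0.84 to 1.35.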
